A study of Rattus norvegicus with 27 samples.

Results

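The 10 genes described here encode the lectican-hyaluronan matrix of the brain: the lecticans aggrecan (Acan), brevican (Bcan), neurocan (Ncan) and versican (Vcan), the crosslinking glycoprotein tenascin-R (Tnr), the link proteins Hapln1, Hapln2 and Hapln4, the lectican-cleaving protease Adamts4 and the hyaluronan synthase Has2. They were selected by name among the 36865 rows of the count table, because Adamts4 and Hapln2 stand on the study's lists of genes associated with light-dark (LD) test behavior. The question was whether that pair varied between rats in step with the rest of the matrix, with Pvalb, the marker of the interneurons that perineuronal nets wrap, or with Mbp, the gene of myelin basic protein. All 10 symbols were found, each as 1 row.

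RNA came from the medial prefrontal cortex (mPFC) of 27 adult male Wistar rats, 1 library per rat, dissected on both sides and homogenized, with the rats at rest and left undisturbed for some time after their last behavioral test. All rats had passed through the same battery of anxiety tests, in which the elevated plus-maze, the light-dark box and the open field were each repeated, so they form 1 group with no untreated controls, and the anxiety scores of single rats were not used here. The sample labels additionally name learned helplessness, acoustic startle and fear conditioning, and give another section position and library kit than the study's methods. The rats were picked by ranking a composite anxiety score, so they are not a random draw.

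Lecticans are chondroitin sulfate proteoglycans that bind hyaluronan at one end and tenascin-R at the other, and link proteins lock the bond between lectican and hyaluronan. Around parvalbumin interneurons of the cortex this lattice, rich in aggrecan and Hapln1, forms the perineuronal net, which limits plasticity. A related matrix with versican, brevican and Hapln2 sits at the nodes of Ranvier of myelinated axons, where Hapln2 is a product of oligodendrocytes. Adamts4 cleaves lecticans and is expressed in mature oligodendrocytes.

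The stretches before the transcription start are shown for Hapln2 and Adamts4, the members on which the results turn, and for Acan, the central net component, as a contrast. They are the 250 bases before the start of the RefSeq gene model in the GRCr8 assembly, written 5′ to 3′ on the gene's strand, at chr2:175794439-175794688 (minus strand) for Hapln2, chr13:86202761-86203010 (plus strand) for Adamts4 and chr1:142390701-142390950 (plus strand) for Acan. Capitals mark matches, on either strand, to ACAAAG or ACAATG (the core bound by SOX factors), CAGCTG (an E box), and CTGGCAC or CTGGTAC (the core of the site of MYRF, the myelin regulatory factor).
Hapln2: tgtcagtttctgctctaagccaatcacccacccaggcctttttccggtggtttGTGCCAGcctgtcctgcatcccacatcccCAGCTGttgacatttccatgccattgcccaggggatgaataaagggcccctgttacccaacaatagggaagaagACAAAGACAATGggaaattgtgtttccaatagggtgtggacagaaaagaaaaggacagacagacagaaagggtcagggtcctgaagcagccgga
Adamts4: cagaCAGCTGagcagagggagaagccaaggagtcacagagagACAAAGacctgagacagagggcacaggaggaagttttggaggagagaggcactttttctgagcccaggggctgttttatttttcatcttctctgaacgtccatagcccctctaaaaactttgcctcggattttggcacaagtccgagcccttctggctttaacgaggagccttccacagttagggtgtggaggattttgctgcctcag
Acan: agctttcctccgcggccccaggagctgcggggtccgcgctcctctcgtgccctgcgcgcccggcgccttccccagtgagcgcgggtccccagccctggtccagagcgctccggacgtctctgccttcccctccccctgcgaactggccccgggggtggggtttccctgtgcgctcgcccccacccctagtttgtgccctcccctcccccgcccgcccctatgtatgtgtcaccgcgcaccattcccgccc

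The Hapln2 stretch held 4 matches. An ACAAAG from position -94 to -89 was followed directly, without overlap, by an ACAATG from -88 to -83, and the E box began at -168 and the reverse complement of CTGGCAC at -197 (positions counted back from the start). Adamts4 had an ACAAAG at -208 and an E box at -246, and the Acan stretch held none of the 5 motifs. Over all 33469 stretches of this length in the table, 16.3% held ACAAAG, 11.1% ACAATG, 2.09% both of these, 12.0% the E box, 3.78% CTGGCAC and 1.78% CTGGTAC. Of the 2 Mbp starts in the table, the upstream one held no match and the other held 4. A match says only that these letters are present. Promoter stretches were found for 9 of the 10 members, Has2 being the exception.

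Between 4907255 and 12771309 reads per library were counted on genes (median 8168801). Library names carry a number, and depth followed it: the 16 libraries numbered up to 31 held at most 8568317 reads and the 11 numbered from 32 at least 9404220, without overlap, so results are also given within these sets. The study drew its male Wistar rats from a pair of cohorts, and whether the numbers follow these, a sequencing run or something else is not given in the sources used here. The labelled tissue held its defining markers: all those used for excitatory neurons, PV interneurons, astrocytes, microglia and myelin were above 0 in every library, and 1 of 8 markers of oligodendrocyte precursors was at 0 in at least 1. Summed myelin markers ranged from 19077 to 66499 normalized counts, with library 3 at the top. Library 3 stood apart, with the highest Mbp (33372 normalized counts against a median of 14383), the highest Pvalb (720 against 432), and the lowest Tnr and Ncan of all 27. In bulk tissue, fewer cells of a type and less RNA per cell cannot be told apart.

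Normalized counts (reads divided by median-of-ratios size factors) spanned a wide range within several members. They are compared between libraries only, because transcript lengths were not used. Among the lecticans, Bcan ranged from 1736 to 3057 (median 2466) and Ncan from 469 to 1018 (median 830). Vcan ranged from 142 to 284 (median 224). Acan was sparse, with 6.15 to 35.6 normalized counts (median 20.6) from 5 to 42 reads per library, so counting error is a large part of its spread. The steadiest of the 4 was Bcan, with a coefficient of variation (CV) of 11.7%, against 16.4% for Ncan, 15.6% for Vcan and 31.8% for Acan.

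Tnr, the crosslinker, had a CV of 44.3% and ran from 50.5 in library 3 to 584 in library 12 (median 315). Without library 3 its lowest value was 112. For the link proteins, Hapln1 ranged from 71.9 to 264 (median 134, CV 26.1%), and Hapln4 from 711 to 1915 (median 1055). Hapln2 ranged from 136 in library 18 to 578 in library 54 (median 302, CV 37.4%), a 4.23-fold span. Adamts4 ranged from 45.5, again in library 18, to 106 in library 9 (median 80.3, CV 19.8%). Has2 was near the floor of detection, with 1 to 12 reads per library and 140 in all, and did not pass the filter on low counts, so 9 of the 10 members could be tested.

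**Figure D1:**
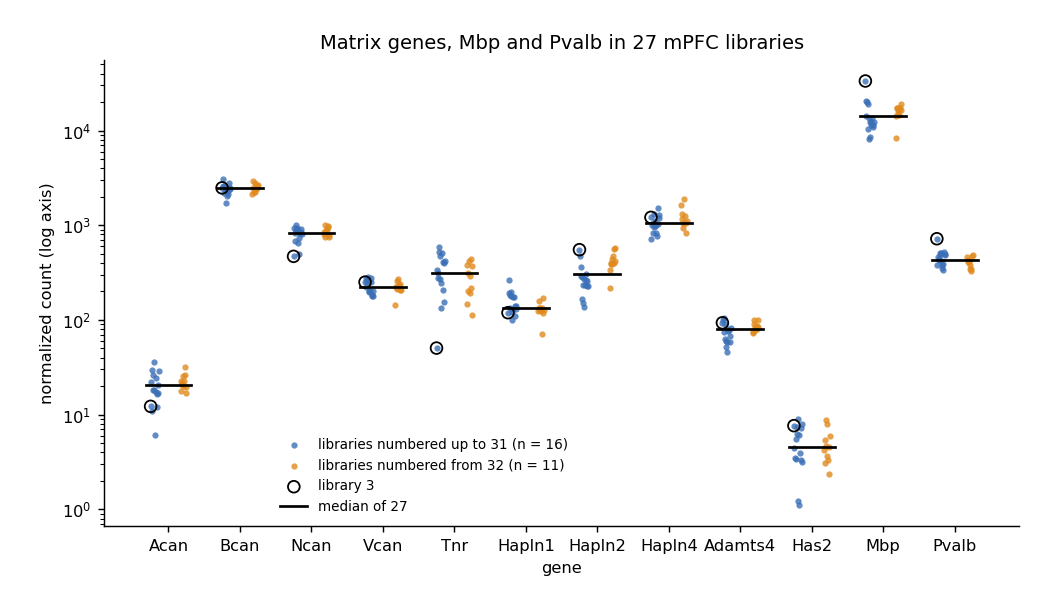
Normalized counts (log axis) of the 10 matrix genes, Mbp and Pvalb, 1 point per library. Blue points are the 16 libraries numbered up to 31, orange points the 11 numbered from 32, the circle marks library 3 and the bar the median of 27. Bcan is tight around 2466, Tnr spreads from 50.5 to 584, and 10 of the 11 orange Hapln2 points lie above the blue median of 259.

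All 9 testable members varied between rats beyond counting error (chi-square test of dispersion against a Poisson model, adjusted over 11730 rows). So did 89.8% of all rows, which makes it a property of most genes. Acan came closest to counting noise (adjusted p = 0.00481), followed by Adamts4 (adjusted p = 3.14e-06). Within the 11 libraries numbered from 32 neither passed, with adjusted p = 0.406 for Acan and 0.317 for Adamts4, while the other 7 did.

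Hapln2 and Adamts4 rose with Mbp, and no other member passed edgeR's test over all 27 libraries. Per doubling of Mbp, Hapln2 was higher by 1.10 ± 0.13 on the log2 scale (SE, n = 27, adjusted p = 8.76e-07, edgeR quasi-likelihood test), close to a doubling of its own, and Adamts4 by 0.52 ± 0.09 (adjusted p = 0.000392). Among all 11291 rows tested, 194 rose with Mbp, which is 1.72%, and 30 fell. In the 5 libraries with the least Mbp, Hapln2 lay between 136 and 229 normalized counts and in the 5 with the most between 286 and 578, without overlap. For Adamts4 these ranges were 45.5 to 73.7 and 90.1 to 106, also without overlap. The ranges of the other members overlapped. Hapln1 overlapped in part, with 99.6 to 135 in the low-Mbp and 119 to 264 in the high-Mbp libraries. Acan overlapped throughout, with 6.15 to 26.1 and 10.97 to 22.1. The share of all rows without overlap was not counted, so these ranges are a description only.

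Both calls held in each of the 27 fits that left out 1 library. The slope of Hapln2 then lay between 1.04 and 1.26 and that of Adamts4 between 0.47 and 0.62. Library 3, at the far end of the Mbp range, lowered both, and without it Hapln2 rose by 1.26 ± 0.14 and Adamts4 by 0.62 ± 0.10. Within the 16 libraries numbered up to 31, the slopes were 0.94 ± 0.10 for Hapln2 (adjusted p = 8.37e-06) and 0.55 ± 0.12 for Adamts4 (adjusted p = 0.0131). Within the 11 numbered from 32, Hapln2 kept 1.06 ± 0.17 (adjusted p = 0.0161), while Adamts4 had 0.29 ± 0.16 and did not pass (adjusted p = 0.86). The difference between the sets did not pass for any row (0.0% called, edgeR interaction test, 513 rows at an unadjusted p under 0.05). For Adamts4 it was -0.24 ± 0.20 (adjusted p = 0.958) and for Hapln2 0.13 ± 0.21 (adjusted p = 0.961).

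The other 7 tested members are given by their slopes. Bcan had 0.21 ± 0.06 (adjusted p = 0.0822) and Vcan 0.26 ± 0.09 (adjusted p = 0.155), both positive but short of the threshold. Bcan did pass in DESeq2's Wald test (0.21 ± 0.06, adjusted p = 0.0438), and in edgeR without library 3 (0.28 ± 0.07, adjusted p = 0.034), without library 26, and with the 2 libraries farthest from the median of Mbp left out (0.32 ± 0.08, adjusted p = 0.0327). Hapln1 had 0.25 ± 0.15 (adjusted p = 0.479), and leaving out 1 library gave from 0.125 (without library 5) to 0.39 ± 0.16 (without library 3), with no pass. Slopes of Acan (-0.01 ± 0.21), Ncan (-0.11 ± 0.11) and Hapln4 (-0.07 ± 0.13) did not pass, and without library 3 they had 0.15 ± 0.23, 0.06 ± 0.10 and -0.15 ± 0.16. Tnr had -0.38 ± 0.33, of which library 3 carried most (-0.01 ± 0.32 without it). Pvalb itself had 0.12 ± 0.10 on Mbp, and -0.11 ± 0.10 without library 3.

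**Figure D2:**
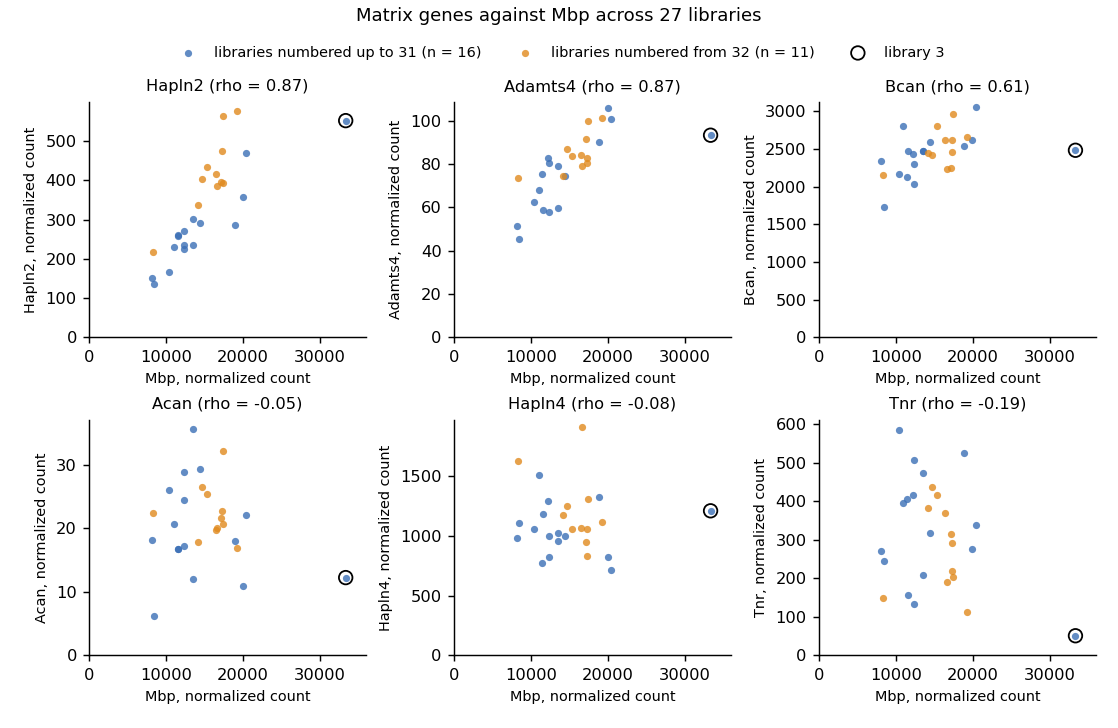
Normalized counts of 6 matrix genes against those of Mbp, 1 point per library, colored by library set, with library 3 circled. Hapln2 and Adamts4 climb with Mbp (rho = 0.87 for both), Bcan climbs less steeply (rho = 0.61), and Acan, Hapln4 and Tnr show no climb.

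The slopes themselves were compared, since a call in one gene and none in another does not show a difference. The difference of log2 levels between Hapln2 and each other member was regressed on Mbp by least squares, whose slopes can depart from those of the count model (Tnr had -0.56 here), with a two-sided permutation test (100000 permutations, adjusted over 11728 rows). Hapln2 was steeper than all 8 members tested. The smallest differences were those to Adamts4 (0.56 ± 0.13, adjusted p = 0.000179) and Vcan (0.81 ± 0.18, adjusted p = 0.000157), and the largest was that to Tnr (1.64 ± 0.38, adjusted p = 0.000222). By this test 98.9% of all rows differed from Hapln2, so 8 of 8 members is near the share of all rows and is not particular to the matrix. All 8 differences passed without library 3 too.

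Adamts4 was steeper on Mbp than Ncan (0.67 ± 0.11, adjusted p = 4.26e-05 by the permutation test), Hapln4 (0.60 ± 0.16, adjusted p = 0.00109), Bcan (0.31 ± 0.08, adjusted p = 0.00109), Tnr (1.09 ± 0.32, adjusted p = 0.00415) and Acan (0.52 ± 0.22, adjusted p = 0.0279). From Adamts4, 90.4% of all rows differed (92.9% without library 3), so the members passed no more often than rows in general. Its differences to Vcan (0.26 ± 0.13, adjusted p = 0.0649) and Hapln1 (0.32 ± 0.16, adjusted p = 0.0652) did not pass. Without library 3 those to Acan (0.42 ± 0.26, adjusted p = 0.121) and Tnr (0.62 ± 0.35, adjusted p = 0.0895) did not pass either. The differences to Ncan, Hapln4 and Bcan passed with library 3 and without it.

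As correlations, Hapln2 and Mbp had Spearman's rho = 0.87 and Pearson's r = 0.86 (permutation p = 1e-05 for each, the smallest that 100000 permutations give, adjusted p = 0.00286 and 0.00202 over 11729 rows). For Adamts4 rho was also 0.87 (permutation p = 1e-05, adjusted p = 0.00286), while r was 0.78 (permutation p = 2e-05, adjusted p = 0.00321). Of all rows, 1.03% were correlated with Mbp by rho. Leaving out the 2 libraries farthest from the median of Mbp gave r = 0.85 for Hapln2 and 0.79 for Adamts4. Within the sets, rho was 0.92 up to library 31 and 0.64 from library 32 for Hapln2, and 0.77 and 0.64 for Adamts4. Bcan and Mbp had rho = 0.61 (permutation p = 0.00087, adjusted p = 0.0729), at 0.61 and 0.56 within the sets.

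Adamts4 and Hapln2 also moved together, which is described without a test because the study picked both for 1 behavior in these rats. They had rho = 0.76 and r = 0.79 over the 27 libraries, with rho = 0.71 in those up to 31 and 0.49 in those from 32. Library 18 was the lowest of all 27 in both, and also in Acan and Bcan. Per doubling of Hapln2, Adamts4 was higher by 0.41 ± 0.07 on the log2 scale, and by 0.22 ± 0.13 with Mbp as a further covariate.

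Of the other members, Bcan was the only one to pass in the fits on Hapln2 and on Adamts4, and in both by a narrow margin. It rose by 0.18 ± 0.05 per doubling of Hapln2 (adjusted p = 0.045, edgeR), where 1.9% of rows rose. Per doubling of Adamts4 it rose by 0.36 ± 0.09 (adjusted p = 0.0463), where 0.62% of rows did. Only 8 of the 27 fits that left out 1 library kept the first call (those without library 3, 19, 26, 28, 39, 43, 51 or 52), and 12 kept the other. The slopes themselves moved less, between 0.13 (without library 18) and 0.20 on Hapln2 and between 0.28 (again without library 18) and 0.40 on Adamts4. With Mbp as a further covariate Bcan had 0.13 ± 0.09 on Hapln2 (adjusted p = 0.34) and 0.30 ± 0.14 on Adamts4 (adjusted p = 0.272). With the myelin score as the further covariate on Hapln2, Hapln1 was the member that passed, falling by 0.44 on the log2 scale (adjusted p = 0.0466). In that fit 1604 of 11291 rows rose and 1381 fell, so 1 of 7 members is near the share of all rows.

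None of the 9 members passed in the fit on Pvalb. On the whole table, 543 rows rose with Pvalb (4.81%) and 203 fell, so 0 of 9 members is near the share of all rows. Without library 3 the counts of rows that rose and fell were 0 and 0, so the axis rests on that library. Hapln4, a link protein of nets, had the highest slope of the members at 0.41 ± 0.24 per doubling of Pvalb (adjusted p = 0.293, edgeR), and 0.52 ± 0.30 without library 3. Hapln4 and Pvalb had rho = 0.44 (permutation p = 0.0226, adjusted p = 0.301), with 0.82 in the libraries up to 31 and 0.14 in those from 32. By rho, 0.0512% of rows were correlated with Pvalb. Acan had a negative slope of -0.54 ± 0.37 (adjusted p = 0.362), and rho = -0.26 (permutation p = 0.194), at -0.08 and -0.76 within the sets. Ncan had -0.40 ± 0.19 (adjusted p = 0.178), and passed only in the fit without library 19 (adjusted p = 0.0179), while without library 3 it had -0.11 ± 0.20. Hapln2 (-0.16 ± 0.38) and Adamts4 (-0.05 ± 0.23) did not pass. Without library 3 Hapln2 had -0.97 ± 0.47 (adjusted p = 0.536) and Adamts4 -0.27 ± 0.28 (adjusted p = 0.806). The slopes on Pvalb did not differ between the library sets for any row by the interaction test (0.0% called, edgeR, 484 rows at an unadjusted p under 0.05).

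**Figure D3:**
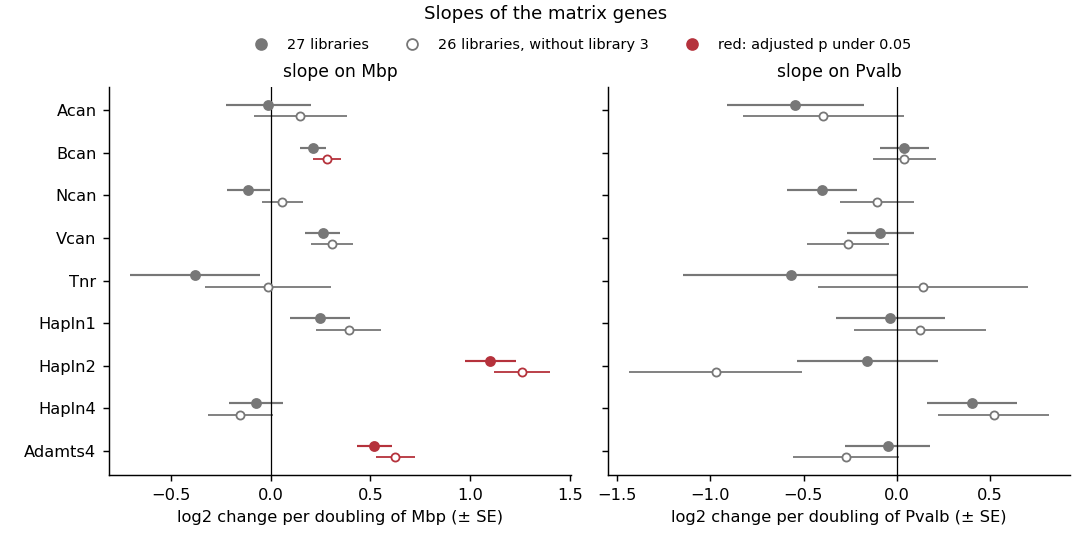
Log2 change of each matrix gene per doubling of Mbp (left) or Pvalb (right), with SE bars. Filled points use 27 libraries, open points leave out library 3, and red marks an adjusted p under 0.05. Hapln2 at 1.10 and Adamts4 at 0.52 are red on Mbp in both, Bcan is red only without library 3, and no point is red on Pvalb.

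Pvalb followed the other markers on the interneuron list loosely. Its rho with the 8 others ran from -0.28 (Slc32a1, the vesicular GABA transporter) to 0.39 (Syt2, a synaptotagmin), and without library 3 from -0.19 (Slc32a1) to 0.43 (Syt2), with 0.35 for Kcnc1 and 0.32 for Kcnc2, potassium channels of fast-spiking cells. With the score over the list, which includes Pvalb, rho was 0.24, and 0.39 without library 3. In library 3, where Pvalb was highest, Gad2 (96.3 normalized counts against a median of 339), Slc32a1, Kcnc1 and Lhx6 were at their lowest of 27, and Gad1 and Kcnc2 ranked 2 and 4 from the lowest. Syt2 was in the middle (rank 13), and Tac1 was high, at 409.8 against a median of 290.2 (rank 26). The part of this in the Pvalb slopes was not tested.

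A score over each of 8 marker lists (the mean z score of the list, scaled to SD 1) gave the members' change with cell types. The myelin list includes Mbp and its score had rho = 0.93 with Mbp, so its fit is not independent of the fit on Mbp. With the myelin score, Hapln2 rose by 0.45 ± 0.07 on the log2 scale per SD (adjusted p = 8.08e-05, edgeR) and Adamts4 by 0.23 ± 0.04 (adjusted p = 0.000973), where 1.52% of rows rose. No other member passed in this fit. Vcan had 0.13 ± 0.04 under DESeq2 (adjusted p = 0.0431) and 0.14 ± 0.04 in edgeR with the library set as a covariate (adjusted p = 0.0407), and passed in both. Both passed without the 2 libraries farthest from the median of the score. Hapln2 had 0.48 ± 0.09 there (adjusted p = 0.00266), and Adamts4 had 0.24 ± 0.05 (adjusted p = 0.00773).

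With the oligodendrocyte precursor score, Bcan rose by 0.15 ± 0.02 per SD (adjusted p = 7.14e-05) and Adamts4 by 0.21 ± 0.05 (adjusted p = 0.0157), where 0.842% of rows rose. Hapln2 had 0.34 ± 0.09 (adjusted p = 0.0663). This list includes Olig1, Olig2 and Bcas1, which later oligodendrocyte stages also express, and its score had rho = 0.55 with the myelin score. Without the 2 farthest libraries no row of the table passed, and Bcan then had 0.14 ± 0.03 (adjusted p = 0.0502) and Adamts4 0.19. With Mbp as a further covariate Bcan kept 0.15 ± 0.02 (adjusted p = 0.000148), whereas Adamts4 had 0.11 ± 0.05 and did not pass (adjusted p = 0.126). In that fit 1362 of 11285 rows rose and 1171 fell, and Acan, Ncan, Tnr and Hapln1 passed beside Bcan, 5 of 9 members in all.

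Hapln1 and Bcan rose with the astrocyte score, by 0.24 ± 0.05 (adjusted p = 0.0125) and 0.10 ± 0.03 (adjusted p = 0.0438), where 1.96% of rows rose. Hapln1 rose equally with the microglia score (0.24 ± 0.05, adjusted p = 0.0201, with 1.0% of rows), and these scores had rho = 0.83 with each other, so the cell types cannot be told apart here. Tnr rose by 0.39 ± 0.12 with the PV interneuron score (adjusted p = 0.0344, with 4.8% of rows) and by 0.39 ± 0.14 with the excitatory neuron score (adjusted p = 0.0331, with 13.9% of rows). Pvalb itself had rho = 0.24 with the interneuron score. On Pvalb, Tnr had -0.57 ± 0.58, and 0.14 ± 0.565 without library 3, and passed in neither fit. Ncan rose by 0.16 ± 0.04 with the excitatory score (adjusted p = 0.00331) and had 0.13 ± 0.04 with the interneuron score (adjusted p = 0.0522). With the interneuron score 578 rows also fell beside 542 that rose, of 11283, and with the excitatory score 1805 fell beside 1563 that rose, of 11284, so 1 and 2 of 9 members are near the share of all rows. All of these calls, of Hapln1, Bcan, Tnr and Ncan, ended without the 2 libraries farthest from the median of the score, but the slopes moved unequally. On the excitatory score Ncan dropped to 0.02 ± 0.05 and Tnr to 0.10 ± 0.18, while Tnr had 0.30 ± 0.14 on the interneuron score. On the astrocyte score Hapln1 had 0.25 ± 0.06 and Bcan 0.10 ± 0.03, close to their values over 27 libraries, and on the microglia score Hapln1 had 0.11 ± 0.07. Library 3 was at -3.14 on the excitatory score and -2.63 on the interneuron score. No member passed with the meningeal (1.9% of rows rose) or the endothelial score (0.177%).

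**Figure D4:**
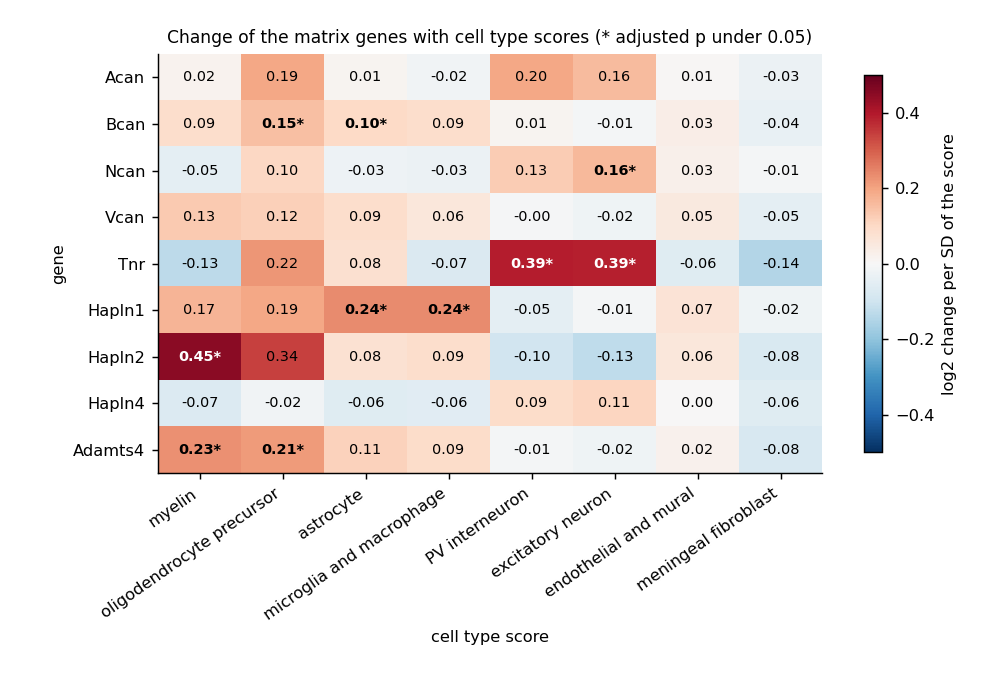
Log2 change of each matrix gene per SD of 8 cell type scores, with the value in each cell and an asterisk for an adjusted p under 0.05. Hapln2 (0.45) and Adamts4 (0.23) carry asterisks in the myelin column, and Bcan (0.15) and Adamts4 (0.21) in the precursor column. Tnr (0.39 and 0.39) and Ncan (0.16) carry theirs in neuronal columns.

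The genes whose pattern was most like that of Hapln2, by rho over 27 libraries among the 9798 named rows whose mean reached 50, were Myrf (0.89), Nkx6-2 (0.89), Sox10 (0.88), Slc6a9 (0.88), Olig1 (0.87), Mbp (0.87), Bcas1 (0.86), Mog (0.86), Gab1 (0.85) and Mag (0.85). Myrf, Nkx6-2, Sox10 and Olig1 encode transcription factors of the oligodendrocyte lineage, and Mbp, Mog and Mag are structural genes of myelin. For Adamts4 they included Bcas1 (0.87), S1pr5 (0.87), Mbp (0.87), Mobp (0.86), Gab1 (0.85), Tf (0.82), Mag (0.82), Ugt8 (0.82) and Sox10 (0.81). S1pr5 is a sphingosine phosphate receptor of oligodendrocytes, and Ugt8 makes the myelin lipid galactocerebroside. Mbp, Bcas1, Gab1, Mag and Sox10 stood on both lists. No matrix gene was on either list.

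The nearest genes of the remaining members were mostly of other kinds. Tnr was closest to Ptprt (0.95), Tnik (0.95) and Trip11 (0.94), then Tanc2 and Nsd3, and Ncan to Neurl4 (0.94), Syt7 (0.91) and Mapk8ip3 (0.89), then Tenm4 and Gramd1b. Tnik, Tanc2 and Syt7 are known from neurons and synapses. Hapln4 was closest to Adra1b (0.81) and Car7 (0.76), and its nearest genes included Fscn1 and Nefh, the heavy neurofilament. Hapln1 led with Gabrg1 (0.86), Bmpr1a (0.83) and Trip4 (0.83), before Gpm6b and Arhgap5. Bcan led with Nherf1 (0.76), Cbs (0.74) and Olig2 (0.73), before Gna12 and Acsbg1. Of these, Cbs and Acsbg1 are known from astrocytes, while Olig2 is on the oligodendrocyte precursor list. Vcan was nearest to Selenop (0.78), Clic5, Svip, Grm3 and Mtmr2. Acan, with its few reads, reached at most 0.70 (Camk2d, Dgki, Nfx1, Peak1 and Wdr19), and Has2 at most 0.63 (Lhpp, with St3gal4, Secisbp2 and Ppp1r9b among the next).

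Lecticans and link proteins lie side by side in the rat gene list, as Bcan next to Hapln2, Ncan next to Hapln4, Vcan next to Hapln1 and Acan next to Hapln3, with no overlap of their annotated spans in GRCr8. Levels of these neighbours were related to different degrees. Vcan and Hapln1 had rho = 0.60 (permutation p = 0.0013), at the edge of the threshold, with adjusted p = 0.0548 over the rows ranked against Vcan and 0.0454 over those ranked against Hapln1. Their r was 0.51 (permutation p = 0.00653, adjusted p = 0.103), with rho = 0.72 and 0.56 within the sets. Hapln2 and Bcan had rho = 0.55 (permutation p = 0.00359), with adjusted p = 0.12 over the rows ranked against Hapln2 and 0.261 over those ranked against Bcan, at 0.59 and 0.58 within the sets, and r = 0.58 (permutation p = 0.00131), with adjusted p = 0.0561 over the rows set against Hapln2 and 0.0884 over those set against Bcan. Ncan and Hapln4 had rho = 0.11 (permutation p = 0.593), and Acan and Hapln3 had -0.32 (permutation p = 0.0992). Of these correlations, only the rho of Vcan and Hapln1 passed, and only in the adjustment over the rows ranked against Hapln1.

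**Figure D5:**
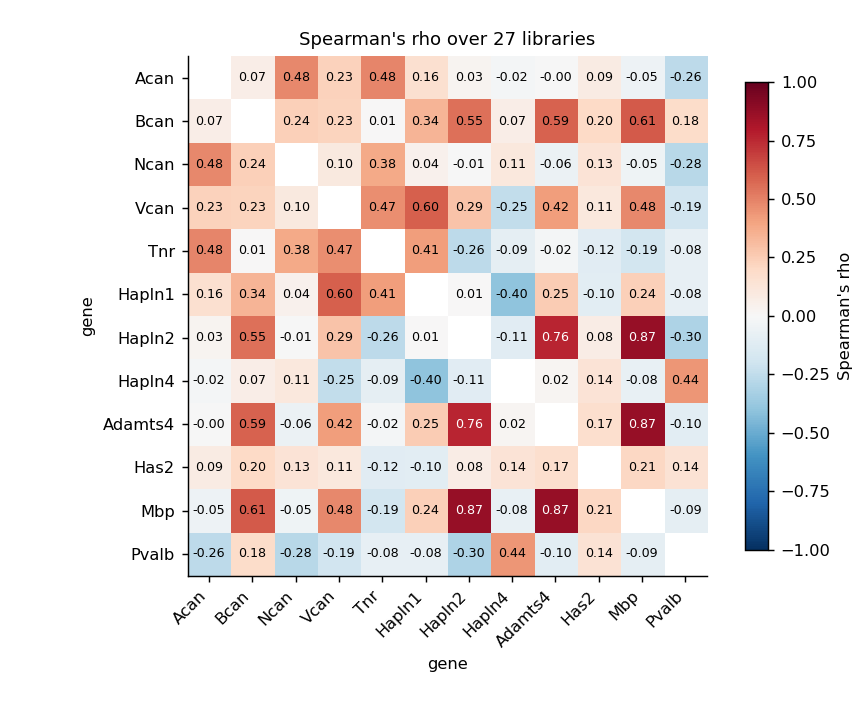
Spearman's rho over 27 libraries between the 10 matrix genes, Mbp and Pvalb, with the value in each cell. The strongest cells join Hapln2, Adamts4 and Mbp (0.76 to 0.87), Vcan and Hapln1 reach 0.60, and Pvalb reaches 0.44 with Hapln4.

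Between the library sets 1 of the 9 tested members differed, Hapln2, a share near that of all rows, of which 1040 were higher and 1048 lower from library 32 among 11292. It ranged from 136 to 552 normalized counts (median 259) in the 16 libraries numbered up to 31 and from 217 to 578 (median 403) in the 11 from 32. The sets overlapped, but 10 of the 11 later libraries lay above the median of the earlier ones and 2 above all of them. The difference was 0.60 ± 0.17 on the log2 scale (adjusted p = 0.0123, edgeR), where 9.21% of rows were higher from library 32, and it passed in all 27 fits that left out 1 library. With Mbp as a covariate it was 0.46 ± 0.07 (adjusted p = 5.97e-05), in a fit where 1263 of 11292 rows were higher and 1331 lower. Mbp itself differed by 0.125 ± 0.167 (adjusted p = 0.649), and by 0.258 ± 0.131 without library 3 (adjusted p = 0.172), where Hapln2 differed by 0.70 ± 0.15 (adjusted p = 0.00144), and 10 of the 11 later libraries lay above the earlier median of Mbp as well. Adamts4 had 0.205 ± 0.105 (adjusted p = 0.18) and Hapln1 -0.265 ± 0.126 (adjusted p = 0.147). Depth differs between the sets, and its part in the Hapln2 difference was not tested.

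Other genes of the same matrix, in 4 lists, were measured beside the members. Their counts were near the background throughout. With Mbp, 0 of the 53 tested of 66 rose and 0 fell (edgeR), where 194 and 30 of 11291 rows did. The tested genes were 16 of 21 of chondroitin sulfate chain synthesis, 8 of 10 of hyaluronan turnover, 14 of 18 matrix proteases and their inhibitors, and 15 of 17 further net and node components. Their median slope was -0.05, against 0.01 over all rows. With Pvalb, 2 of the 53 rose, at a background of 4.81%. B3gat3, whose enzyme completes the linker of chondroitin chains, rose by 0.27 ± 0.08 (adjusted p = 0.0322, edgeR), and Cspg5, a neural proteoglycan, by 0.27 ± 0.08 (adjusted p = 0.0389). Without library 3 they had 0.20 ± 0.10 (adjusted p = 0.536) and 0.13 ± 0.09 (adjusted p = 0.69). B3gat3 also missed the threshold without library 22, 51 or 52 (0.22 to 0.26, highest adjusted p = 0.0995), and Cspg5 without library 15, 22, 28, 43, 51 or 52 (0.25 to 0.27, highest adjusted p = 0.0797). With Hapln2, 0 of the 53 passed over 27 libraries, at a background of 1.9%. With Adamts4, 1 passed, at a background of 0.62%: Tnc, tenascin-C, a matrix glycoprotein related to tenascin-R, rose by 0.71 ± 0.15 (adjusted p = 0.0126), from levels of 63.9 to 144.5 normalized counts (median 93.0). Without library 3 Tnc had 0.77 ± 0.13 on Adamts4 (adjusted p = 0.00121), and it then also passed on Hapln2 (0.32 ± 0.09, adjusted p = 0.0333). On Adamts4 it did not pass without library 17 (0.70 ± 0.17, adjusted p = 0.0566) or library 18 (0.70 ± 0.17, adjusted p = 0.0765).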

How the data were processed

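Single-read RNA sequencing of 27 mPFC samples was available as 1 table. The authors deposited raw read counts per gene, 1 column per library, keyed by NCBI gene ID. The submitters' processing notes name Trimmomatic, STAR and HTSeq. Which versions, build and strand setting they used is not given in the sources used here, so counts of overlapping or near-identical genes are uncertain. All 27 columns were used, grouped as 1 group from the labels. RefSeq names of GRCr8 matched 28157 of 36865 rows, which hold 99.7% of the counts.

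Counts were tested with edgeR 4.0.16 in R 4.3.3 (TMM, filterByExpr, quasi-likelihood test), adjusted by Benjamini-Hochberg over all rows tested, at a threshold of 0.05. Covariates were log2(normalized count + 1) with DESeq2 1.42.0 size factors, a scale that understates changes of low genes. DESeq2's Wald test was an alternative. Correlations and slope differences used two-sided permutation tests (Python 3.11.15, numpy 2.4.6) over rows with a mean count of at least 10. The scripts were tested on simulated data. Other alternatives were scalings, filters, the library sets, further covariates and leaving out libraries. The members, marker lists and matrix lists, the library split and the naming rule were chosen with earlier results of these data known. Named are all members, Mbp, Pvalb, at most 3 genes per matrix list and direction past the threshold in the fits on Mbp and Pvalb, and the 10 genes (Hapln2, Adamts4) or 5 genes (other members) of highest rho, some of which are not reported here. Hapln3, Tnc, the interneuron markers other than Pvalb, and the precursor markers Olig1, Olig2 and Bcas1 were named after their values were seen. The slope differences were added after seeing the data. Each library is 1 rat per the study's methods. Without molecular identifiers, counting limits cover counting error only.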

Additional observations from a re-analysis of the deposited data

How the results depend on the processing

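The rise of Hapln2 and Adamts4 with Mbp kept its direction under every alternative run, and the number of members past the threshold lay between 2 and 3 when single libraries were left out and was 3 with DESeq2 (Bcan added). DESeq2 and the library set as a covariate also gave 3 for the myelin score (Vcan added). It was 1 in the libraries from 32 alone, where Adamts4 did not pass. Correlations with Mbp or Pvalb past the threshold numbered 2 to 3 without single libraries, 1 up to library 31 (Hapln2) and 0 from library 32, where neither passed. On Pvalb the count was 0 to 1 without single libraries and 1 (Tnr) with the interneuron score in its place. The single call on Hapln2, of Bcan, ranged from 0 to 1 without single libraries. It was 0 with median-of-ratios factors, without a filter, in either library set, without the 2 farthest libraries and with Mbp as a covariate. With the myelin score as a covariate Bcan did not pass either, and Hapln1 passed in its place. The single call on Adamts4, again Bcan, also ranged from 0 to 1, and was 0 without a filter, with the library set, Mbp or the myelin score as a covariate, in either set and without the 2 farthest libraries. Calls with the precursor, interneuron, excitatory, astrocyte and microglia scores were all 0 without the 2 farthest libraries. With Mbp as a covariate they numbered 5 (Acan, Bcan, Ncan, Tnr, Hapln1) for the precursor score, in a fit where 1362 of 11285 rows rose and 1171 fell, 1 (Ncan) for the excitatory score and 0 for the interneuron, astrocyte and microglia scores, and DESeq2 gave 2 for the interneuron score. The causes were not tested. The Hapln2 difference between sets was 1 call in all leave-one-out fits, and both interaction counts were 0 without library 3. No paired analysis was possible because all libraries form 1 group. Depth limits Acan and Has2 most.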
